A study of Homo sapiens with 6 samples.

Results

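The proteasome genes of BT-549 cells are described here at the RNA level. The line derives from a human breast tumour that lacks hormone receptors and HER2 amplification (triple-negative). All 6 cultures, vehicle included, carried the same tetracycline-inducible shRNA against WDR5 (BT-549/tet-WDR5shRNA), a scaffold of histone methyltransferase complexes. RNA was sequenced from 3 vehicle cultures (0.1% DMSO) and from 3 cultures given doxycycline (DOX, 500 ng/ml), for 7 days by the study's text. A gene was taken as a member when its symbol begins with PSM, followed by a letter from A to G, a number and at most 1 further letter. The rule found 47 members among the 19792 genes of the authors' table.

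The value analysed for each gene is the mean normalized count, which the authors computed over all 6 libraries together. The vehicle and DOX cultures are therefore averaged in every value below, and the difference between them is not addressed. A mean over libraries has no spread that can be read from it, so no value carries an error and no difference between genes was tested. The depth of each library is unknown. For the same reason the value of WDR5, a mean normalized count of 1143, does not check its silencing.

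The proteasome is the protease that degrades ubiquitin-tagged proteins in the cytosol and nucleus. Its 20S core is a barrel of alpha and beta subunits, in which PSMB5, PSMB6 and PSMB7 cut after hydrophobic, acidic and basic residues, respectively. The 19S regulatory particle, built from ATPases (PSMC) and non-ATPases (PSMD), caps the barrel, binds ubiquitin chains, unfolds the substrate and feeds it in. Interferon and immune cell identity are known to bring in PSMB8, PSMB9 and PSMB10, which replace PSMB5, PSMB6 and PSMB7 and give the immunoproteasome, a form that favours peptides suited to MHC class I.

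Levels of different genes were compared per length, as the mean normalized count per kilobase of the gene's MANE transcript (the reference transcript shared by GENCODE and RefSeq). All 47 members had such a transcript. Genes with a mean normalized count of 10 or more are referred to as detected. They were 13548 of the 19792 genes and 46 of the 47 members. The median level of the 46 members lay at the 89.6 percentile of the 13024 detected genes with a length. Every one of the 46 was above the median gene, whose level was 208 per kilobase. A level at or above the 75 percentile was found for 40 members and at or above the 90 percentile for 22. For mean normalized counts not divided by a length, the median of the 46 members lay at the 84.8 percentile. On that scale the median gene was at 677, and PSMB9 (621), PSMB10 (373) and PSMG4 (366) were below it. The members made up 0.237% of the genes in the table and 0.543% of the summed mean normalized counts.

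**Figure D1:**
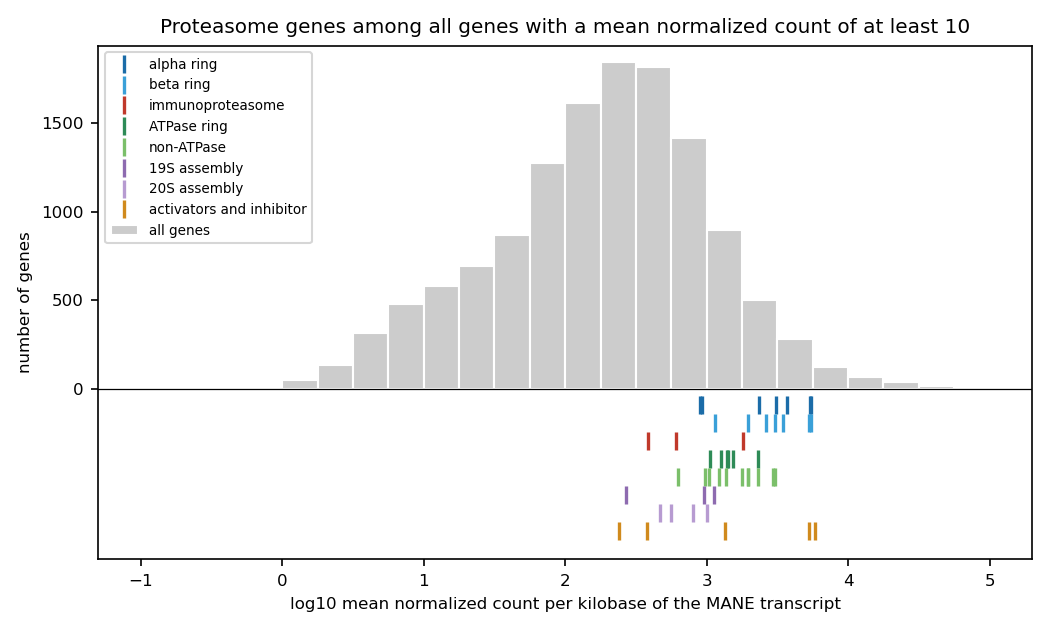
The grey bars count the 13024 detected genes with a length by log10 of their mean normalized count per kilobase of the MANE transcript. The few genes outside log10 of -1 to 5 are not drawn. Each coloured tick below is a proteasome gene, in 1 row per part of the complex. All 46 ticks lie to the right of the median gene, and PSMB9, PSMB10 and the 20S assembly genes lie to the left of most 20S and 19S subunits.

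The label of the cells was compared with marker genes. The mesenchymal genes VIM, SPARC, FN1, ZEB1 and CDH2 had mean normalized counts from 4093 to 47782. The estrogen and progesterone receptor genes ESR1 and PGR were at 0.790 and 0.801, and the epithelial gene EPCAM was at 1.30. The other luminal genes on the list were detected, with ERBB2 at 1221, GATA3 at 362, CDH1 at 59.6 and KRT8 at 57.3. Among immune cell markers, PTPRC (44.7) and CD14 (24.0) were detected, and CD79A and LYZ were at 1.28 and 0.316. The germ cell genes DDX4 and SYCP3 were at 0.287 and 0.267. The 3 thymic epithelium markers on the list had no row in the authors' table, so no level can be given for them.

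The alpha ring forms the outer gate of the 20S core. Its 7 genes had a median of 3103 per kilobase. PSMA6 and PSMA7 were the highest, at 5485 and 5404, followed by PSMA3 at 3726, PSMA2 at 3103 and PSMA1 at 2339. PSMA5 and PSMA4 were the lowest, at 933 and 904. These 2 genes have MANE transcripts of 3815 and 4378 bases, mostly outside the coding sequence, and per kilobase of coding sequence they were at 4921 and 5054. The position of PSMA4 and PSMA5 below the other alpha subunits thus depends on the length that is used.

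The constitutive beta ring had a median of 3054 per kilobase over 7 genes. PSMB7, the trypsin-like subunit, was the highest at 5437, with PSMB4, a structural subunit without protease activity, at 5285. PSMB5, the chymotrypsin-like subunit and the target of bortezomib, was at 3054, and PSMB6, the caspase-like subunit, was at 1976. Among the other structural subunits, PSMB1 was at 3448, PSMB3 at 2631 and PSMB2 at 1145. PSMB2 has a MANE transcript of 4426 bases with a coding sequence of 603 bases, and per kilobase of coding sequence it was the highest of the 31 constitutive subunits at 8406. PSMB7 and PSMA7 held a rank between 1 and 5 and between 2 and 5 of the 47 members, whichever length was used, whereas the rank of PSMB2 went from 1 to 36.

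The 6 ATPases of the 19S base, which unfold the substrate, had a 2.20-fold range. PSMC3 was the highest at 2320 per kilobase, followed by PSMC5 at 1541, PSMC6 at 1417, PSMC2 at 1385, PSMC4 at 1261 and PSMC1 at 1055. The ATPases had a median of 1401. PSMC1 has a MANE transcript of 4390 bases, and per kilobase of coding sequence it was the highest of the 6 at 3509.

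The 11 non-ATPase subunits had a median of 1768 per kilobase. PSMD2 and PSMD1 are the 2 large scaffold proteins of the base, and PSMD2 was at 3036 against 1042 for PSMD1, a ratio of 2.91. PSMD2 was also above PSMD1 on the other 4 scales. PSMD4, a ubiquitin receptor, was at 2926. In the lid, PSMD14 is the deubiquitinase that removes the ubiquitin chain, and PSMD7 is its inactive partner. Their levels were 1946 and 2314, a ratio of 0.841, or 0.269 with the longest transcript. The other lid genes were PSMD6 at 1968, PSMD8 at 1768, PSMD13 at 1363, PSMD3 at 1213, PSMD11 at 980 and PSMD12 at 625. PSMD12 was the lowest of the 31 constitutive subunits on this scale, and PSMD1 was the lowest per kilobase of coding sequence.

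The 14 constitutive subunits of the 20S core had a median of 3078 per kilobase. The 17 subunits of the 19S particle that meet the symbol rule had a median of 1417, a ratio of 20S to 19S of 2.17. The lid gene SEM1 (4510) and the ubiquitin receptor gene ADRM1 (1402) are outside the rule and not among them. With the other 3 measures of length the ratio went from 1.80 to 1.90, and it was 1.23 for mean normalized counts not divided by a length. The 31 genes together had a median of 1968, and 23 of them were within 2-fold of it. Their whole range was 8.77-fold and their coefficient of variation 61.4%. Per kilobase of coding sequence these were 6.94-fold and 49.8%. TRiC, a chaperonin of 8 different subunits in equal number, had a range of 3.33-fold and a coefficient of variation of 35.0% per kilobase of the MANE transcript. Per kilobase of coding sequence TRiC had a 4.14-fold range and a coefficient of variation of 40.0%. Per kilobase of the mean coding transcript the proteasome subunits (54.7%) varied less than TRiC (57.9%). The same held for mean normalized counts not divided by a length (39.0% against 40.3%), so the order of the coefficients depends on the scale. The fold range of the proteasome subunits was the larger on each of the 5 scales. A range tends to widen with the number of genes, and 31 proteasome genes stood against 8 of TRiC. TRiC was 1 of 2 comparison sets tried after the values were seen, the other being ribosomal protein genes, whose list took in nearly silent paralogues and was dropped.

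**Figure D2:**
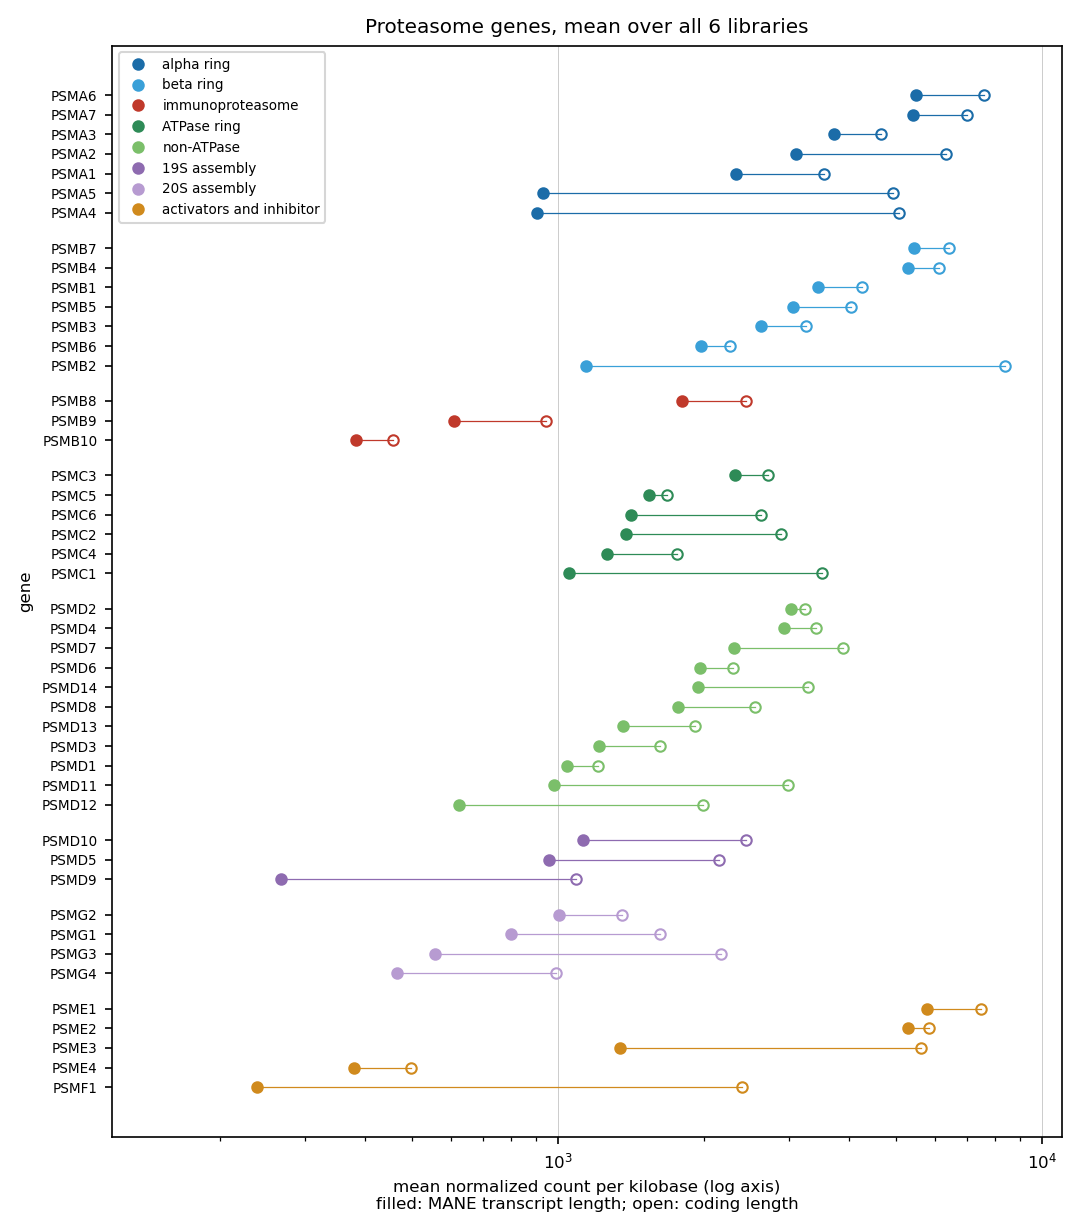
Each row is a proteasome gene, grouped and coloured by its part of the complex, and the log axis gives the mean normalized count per kilobase over all 6 libraries, with the MANE transcript length (filled) and the coding length (open). PSMB11, at a mean normalized count of 0.267, is not drawn. PSMB9 and PSMB10 lie below all constitutive 20S and 19S subunits with both lengths, and the filled and open points lie far apart for genes with long untranslated ends such as PSMB2, PSMA4 and PSMA5.

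The immunoproteasome subunits were all detected and differed among themselves. PSMB8 (chromosome 6 of GRCh38, 32840717 to 32844679 in GENCODE 44) had a mean normalized count of 2029 and 1806 per kilobase. PSMB9 (chromosome 6, 32844136 to 32859851) had 621 and 610 per kilobase. PSMB10 (chromosome 16, 67934506 to 67936864) had 373 and 382 per kilobase. Among the 47 members their levels ranked 20, 40 and 43. Over the 5 scales (the MANE transcript, no length, the longest transcript, the coding sequence and the mean coding transcript), the rank of PSMB8 went from 20 to 35, that of PSMB9 from 39 to 44 and that of PSMB10 from 40 to 46. Among the detected genes the 3 genes lay at the 92.2, 75.8 and 65.0 percentile per kilobase. For mean normalized counts not divided by a length they lay at the 76.3, 48.1 and 38.1 percentile, so their place among all genes depends on the scale. PSMB8 was 2.96 times PSMB9 (2.12 to 3.69 over the scales) and 4.72 times PSMB10 (2.24 to 5.43). PSMB9 was above PSMB10 on 4 of the 5 scales, and with the longest transcript it was below, at a ratio of 0.607.

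Each of the 3 genes was below the constitutive subunit whose place its protein takes. PSMB8 was 0.591 of PSMB5 (chromosome 14, 23016543 to 23035230), so that PSMB8 made up 37.2% of the sum of that pair. PSMB9 was 0.309 of PSMB6 (chromosome 17, 4796144 to 4798502), or 23.6% of the pair. PSMB10 was 0.0703 of PSMB7 (chromosome 9, 124353465 to 124415444), or 6.57% of the pair. Summed over the 3 pairs, the immunoproteasome genes held 21.1% of the catalytic subunit level, and between 12.6% and 23.2% with the other scales. The order of the 3 ratios, PSMB8 highest and PSMB10 lowest, was the same with each of the 5 scales. PSMB10 to PSMB7 varied between 0.0698 and 0.0752. With the longest annotated transcript as length, PSMB8 to PSMB5 was 0.300 and PSMB9 to PSMB6 was 0.124, since PSMB8 and PSMB9 have annotated transcripts of up to 2373 and 2676 bases.

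**Figure D3:**
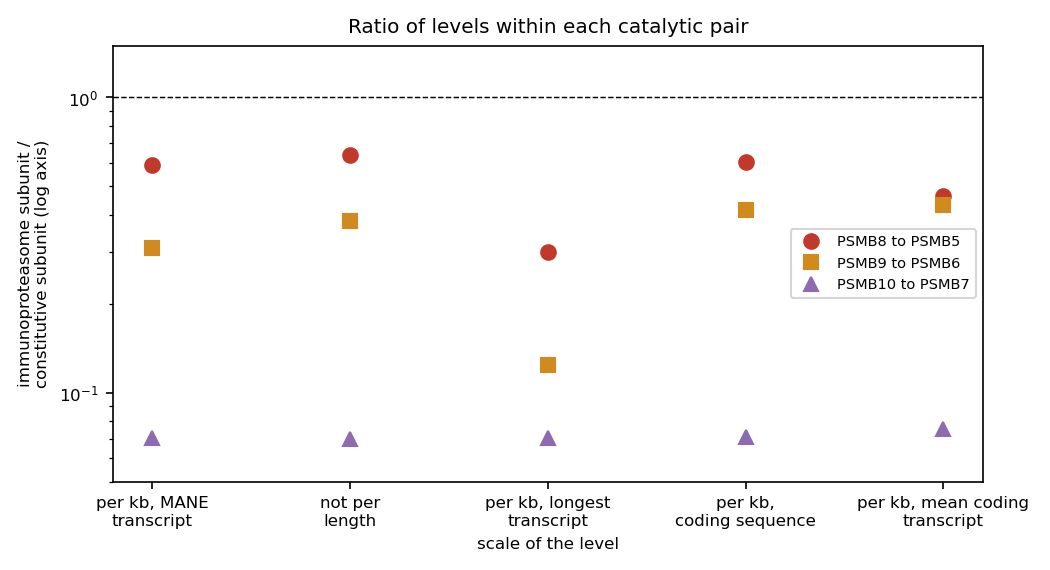
The points give the level of PSMB8, PSMB9 and PSMB10 divided by that of PSMB5, PSMB6 and PSMB7 on a log axis, for 5 scales of the level on the horizontal axis, and the dashed line marks equal levels. All 15 ratios lie below the line, and PSMB10 to PSMB7 stays near 0.07.

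Of the 31 constitutive 20S and 19S subunits, 17 were above PSMB8 and all 31 were above PSMB9 and PSMB10. On the other 4 scales between 23 and 29 of the 31 were above PSMB8. Per kilobase of the mean coding transcript, 30 of the 31 were above PSMB9, and on the other scales all 31 were. The median of PSMB8 to PSMB10 was 0.200 of the median of PSMB5 to PSMB7. PSMB11, which replaces PSMB5 in thymic cortical epithelium, was at a mean normalized count of 0.267, the lowest of all members and the only one not detected. PSMA8, the alpha subunit of the testis, had no row under that symbol in the authors' table, so no level can be given.

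Activators open the 20S gate in place of the 19S particle. PSME1 and PSME2 encode the PA28 alpha and beta subunits, which form a mixed ring and are interferon-inducible like PSMB8 to PSMB10. PSME1 (chromosome 14, 24136163 to 24138967) was the highest of all 47 members at 5791 per kilobase, with a rank between 1 and 5 on the 5 scales, and PSME2 (chromosome 14, 24143362 to 24147570) ranked 5 at 5289. Their ratio was 1.09, and it went from 0.815 to 3.23 over the 5 scales, so that their order is not fixed. Both were above PSMB8, PSMB9 and PSMB10 on each of the 5 scales. PSME2 has 6 annotated pseudogenes. PSME3, the nuclear PA28 gamma, was at 1345, and PSME4 (PA200), a large nuclear activator, was at 379. PSME3 has a MANE transcript of 3182 bases. Per kilobase of coding sequence PSME3 was at 5616, against 7480 for PSME1 and 5850 for PSME2, so its distance from them depends on the length. PSMF1, which encodes the inhibitor PI31, was the lowest of the 46 at 239, with a MANE transcript of 8154 bases. Per kilobase of coding sequence PSMF1 was at 2395.

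Assembly factors do not stay in the finished protease. The assembly genes among the members were below most subunit genes per kilobase of the MANE transcript. PSMG1 and PSMG2 form a heterodimer that gathers alpha subunits, and were at 801 and 1005 per kilobase, a ratio of 0.797. Per kilobase of coding sequence the order was turned, with PSMG1 at 1626 and PSMG2 at 1358, and the ratio reached 4.24 with the longest transcript. PSMG3 and PSMG4, the second heterodimer, were at 558 and 466, a ratio of 1.20 that was the lowest of the 5 scales, the highest being 7.02 with the longest transcript. The median of the 4 genes was 679. For the 19S base, PSMD5, PSMD9 and PSMD10 are chaperones that hold pairs of ATPases, although their symbols place them with the non-ATPases. PSMD10 (gankyrin) was at 1127, against 1261 for its ATPase partner PSMC4, whereas per kilobase of coding sequence PSMD10 was the higher of the pair, at 2444 against 1764. PSMD5 was at 961, against 1055 for PSMC1 and 1385 for PSMC2. Its ratio to PSMC1 went from 0.612 to 1.01 and that to PSMC2 from 0.693 to 1.73, so that neither order held on all 5 scales. PSMD9 was at 267, which is 0.189 of PSMC6 and 0.115 of PSMC3, the ATPases that it binds. Over the 5 scales these ratios went from 0.189 to 0.415 and from 0.106 to 0.401. PSMD9 had the lowest rank of the 3 with each scale, between 42 and 45 of 47.

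Proteasome genes outside the symbol rule were listed as well. All 11 were detected, with levels from 97.7 per kilobase for PAAF1, a chaperone of the 19S base, upwards. SEM1, a small subunit of the lid, was at 4510 per kilobase, above every lid gene among the members, and ADRM1, a ubiquitin receptor, was at 1402. POMP, an assembly factor that guides the beta ring into place, was at 2838. It was above all of PSMG1 to PSMG4 and above the median of the 31 constitutive subunits (1968). Among regulators, NFE2L1, the transcription factor that raises proteasome genes when the protease is inhibited, was at 1704, and its protease DDI2 was at 34.1. Their mean normalized counts, not divided by a length, were 8247 and 364, so the gap between them depends on the scale. IRF1, a transcription factor of the interferon response, was at 818. NLRC5, a regulator of MHC class I genes, was at 130, and CIITA, its MHC class II counterpart, was at 1.04.

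The members lie on 17 chromosomes. Chromosomes 14 and 17 hold 8 and 7 of them, or 17.0% and 14.9%, against 3.22% and 5.88% of all matched genes. PSMB8 and PSMB9 lie side by side in the MHC region with the peptide transporter genes TAP1 and TAP2, and the start of PSMB9 is 488 bases from the start of TAP1 on the opposite strand. TAP1 was at 1901 per kilobase, against 610 for PSMB9. PSMB5 and PSMB11 start 7312 bases apart, and PSME1 and PSME2 start 10416 bases apart, both on chromosome 14. The members were shorter than other genes. The median MANE transcript of the 46 was 1494 bases and the median coding sequence 816 bases, against 3481 and 1437 bases for 12169 detected protein-coding genes.

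Some members share sequence with other transcripts. GENCODE 44 lists 44 pseudogenes of 17 members by name, with 13 of PSMC1, 6 of PSME2 and 4 of PSMA6. How the authors counted reads that match a gene and its copies is not given in the sources used here, so the levels of these members are uncertain in that respect. Antisense genes of 4 members have values of their own, compared here as mean normalized counts and not per length. PSMA3-AS1 was at 12.6% of the count of PSMA3, PSMB8-AS1 at 12.5% of PSMB8, PSMG3-AS1 at 7.43% of PSMG3 and PSMD6-AS2 at 0.958% of PSMD6. The libraries were stranded, but whether the counting used strand is not given. The annotated extent of PSMB9 overlaps that of TAP1 by 8608 bases and that of PSMB8 by 544 bases, both on the opposite strand.

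Promoters were compared because PSMB8 to PSMB10, PSME1 and PSME2 share a known inducer but not a level. RefSeq windows (GRCh38.p14) of 250 bases before to 50 bases after the start were matched for 41 of the 47 members. PSMA7, PSMB1, PSMB6, PSMB7, PSMD4 and PSMG3 had no entry. The IRF element, the core of the site that interferon regulatory factors bind (searched as a GAAA pair with any 2 bases between, on both strands), was matched in 6 of the 41 windows. These were PSMB8, PSMB10, PSME1, PSME2, PSMB4 and PSMG4, and they are 14.6% of the members, against 3.63% of all 27305 promoters and 2.88% of the 10149 detected genes with a window. The 120 bases from 100 before to 20 after the start are shown for these 6 genes, because they hold the match (in capitals), and for PSMB9 and PSMB5, the immunoproteasome and constitutive catalytic genes with a window and no match. The genes shown were picked after the matches were known. For PSMB9, the window covers 250 bases before the start and does not reach the start of TAP1, 488 bases away. The rest of that stretch was not searched. All are written 5′ to 3′ along the gene's own strand, on GRCh38.p14.
PSMB8, chr6:32844028-32844147, minus strand: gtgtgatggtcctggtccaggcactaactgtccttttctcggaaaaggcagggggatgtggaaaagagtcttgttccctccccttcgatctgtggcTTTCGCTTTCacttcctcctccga
PSMB10, chr16:67936831-67936950, minus strand: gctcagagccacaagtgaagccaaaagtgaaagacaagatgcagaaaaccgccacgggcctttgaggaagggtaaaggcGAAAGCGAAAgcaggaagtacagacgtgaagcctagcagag
PSME1, chr14:24136094-24136213, plus strand: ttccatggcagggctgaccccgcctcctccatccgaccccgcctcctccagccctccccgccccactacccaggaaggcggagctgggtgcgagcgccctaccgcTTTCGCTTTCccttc
PSME2, chr14:24146591-24146710, minus strand: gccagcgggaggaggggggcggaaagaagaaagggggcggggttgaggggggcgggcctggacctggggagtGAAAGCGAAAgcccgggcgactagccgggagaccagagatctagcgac
PSMB4, chr1:151399473-151399592, plus strand: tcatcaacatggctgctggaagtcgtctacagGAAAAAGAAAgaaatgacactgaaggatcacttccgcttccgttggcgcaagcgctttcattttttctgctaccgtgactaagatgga
PSMG4, chr6:3258847-3258966, plus strand: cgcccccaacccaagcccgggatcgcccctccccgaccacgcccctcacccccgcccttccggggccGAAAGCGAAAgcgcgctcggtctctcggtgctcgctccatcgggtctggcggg
PSMB9, chr6:32854092-32854211, plus strand: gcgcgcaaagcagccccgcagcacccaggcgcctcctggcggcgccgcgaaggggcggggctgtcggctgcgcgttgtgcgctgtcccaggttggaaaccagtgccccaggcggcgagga
PSMB5, chr14:23034881-23035000, minus strand: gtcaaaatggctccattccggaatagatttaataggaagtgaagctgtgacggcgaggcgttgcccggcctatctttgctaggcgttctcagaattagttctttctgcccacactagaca

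In PSMB8, PSMB10, PSME1, PSME2 and PSMG4 the matched letters are the same, read on one strand or the other. The match begins 21 bases before the start in PSMB10, 28 before in PSME2 and 33 before in PSMG4. In PSMB8 it begins 4 bases before the start and runs across it, and in PSME1 it begins at base 6 of the transcript. In PSMB4 it begins 68 bases before the start and has other letters between its GAAA repeats. The levels of the genes with a match run from 382 per kilobase for PSMB10 to 5791 for PSME1, so that genes with a match lay near both ends of the range. In the bases before the start alone, 4 windows (9.76%) had a match, without PSMB8 and PSME1. The shares there were 3.07% of all promoters and 2.46% of the detected genes. A match is a run of letters and was not tested for binding.

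The ARE core (TGACNNNGC), the site of NFE2L1 and NFE2L2, was matched in 12 of the 41 windows (29.3%), against 13.6% of all promoters and 15.4% of the detected genes. The 12 genes were PSMB3, PSMB9, PSMC4, PSMD1, PSMD3, PSMD5, PSMD9, PSMD12, PSME1, PSME2, PSME4 and PSMG1. The STAT element (TTCNNNGAA) was matched in 6 windows (14.6%), against 7.80% of all promoters and 6.18% of the detected genes. The 6 genes were PSMA2, PSMB5, PSMB8, PSMC4, PSMD3 and PSME3. The GC box (GGGCGG) was found in 68.3% of the members, 73.5% of the detected genes and 45.9% of all promoters, and the CCAAT box (CCAAT) in 43.9%, 36.9% and 35.7%. The TATA box (TATAAA) was found in 9.76% of the members, 5.17% of the detected genes and 11.9% of all promoters. Of the 41 windows, 36 had a ratio of observed to expected CpG of at least 0.6 (87.8%), close to the 86.4% of the detected genes. The 5 others were PSMC2, PSMB10, PSMD8, PSMB11 and PSME2, with PSMB11 the lowest at 0.169 and PSMB10 next at 0.329.

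**Figure D4:**
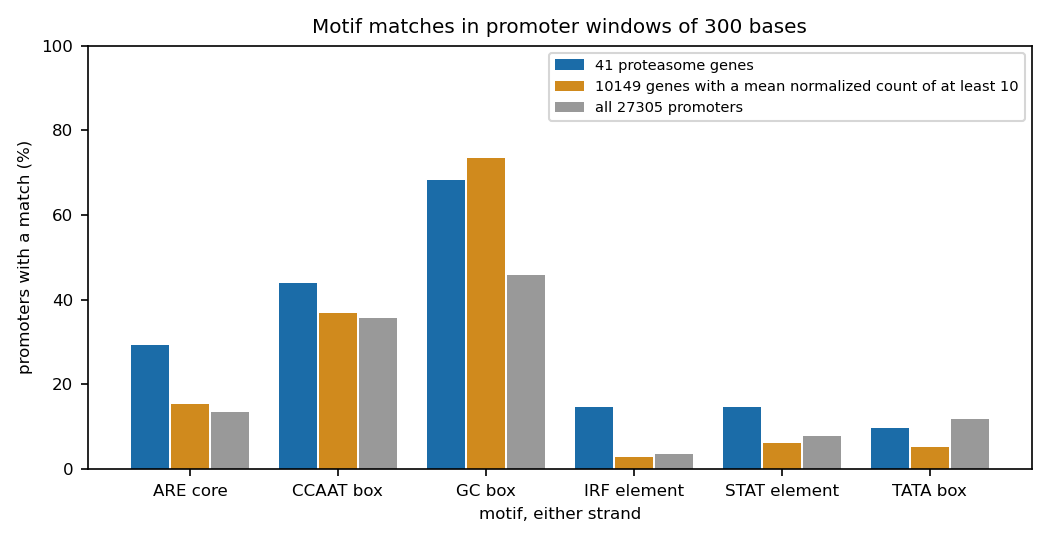
Bars give the percent of promoter windows of 300 bases with at least 1 match on either strand, for 41 proteasome genes, for the 10149 detected genes and for all 27305 promoters. The IRF element was matched in 14.6% of the proteasome genes and in 2.88% and 3.63% of the other sets. The GC box was matched in 68.3% of the proteasome genes, near the 73.5% of the detected genes.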

How the data were processed

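By the paper's methods, stranded poly(A) libraries of triplicate cultures were aligned to GRCh38 with STAR, and counts were normalized and compared with DESeq2. How reads were counted, over which annotation and after which filter is not given in the sources used here. The deposited table has 1 row per gene symbol. Its mean normalized count, a signal that the authors averaged over all 6 libraries, is the only column analysed. The other 5 columns hold the authors' own comparison of DOX with vehicle (log2 fold change, standard error, statistic, p-value and adjusted p-value) and were not used, so that no comparison between the groups was made.

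Symbols were matched to GENCODE 44 (GRCh38), 17729 directly and 594 through a RefSeq synonym, and 1469 were not matched. Levels are mean normalized counts divided by the MANE transcript length in kilobases, or by that of the canonical transcript where a gene has no MANE transcript. Alternatives were no length, the longest transcript, the coding sequence and, chosen after seeing the data, the mean coding transcript. The ratio of 20S to 19S subunits was also chosen after seeing the data. Where RefSeq gives several promoter windows for a gene, the one nearest the MANE start was used. By the rule for named genes, any member may be named. The members and lists were chosen with earlier results of these data known. The motif search and percentiles were tested on simulated data. A planned comparison of protein sequences was not run. Some listed genes are not reported here. Python 3.11.15, numpy 2.4.6, pandas 2.3.3 and matplotlib 3.10.9 were used.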

Additional observations from a re-analysis of the deposited data

How the results depend on the processing

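Of 87 values under alternative settings, 72 stayed within 1.5 times the reported value and on the same side of 1, a limit used because no replicate spread can be had. With the longest transcript as length, PSMB8 to PSMB5 was 0.300, PSMB9 to PSMB6 was 0.124, and the medians relative to the 31 constitutive subunits became 1.04 for the alpha ring (1.58 as reported), 0.839 for 19S assembly (0.488) and 1.11 for the activators and inhibitor (0.683). The last was also 1.18 without a length, 1.71 with the coding sequence and 1.11 with means. Without a length, the medians were 0.896 for the beta ring (1.55) and 0.174 for the immunoproteasome (0.310), 20S to 19S was 1.23, the range of the 31 subunits was 5.43-fold, and the median of PSMB8 to PSMB10 was 0.198 of that of the other members (0.436). With PSME1 and PSME2 counted among the immunoproteasome genes, their median was 0.591 of that of PSMB5 to PSMB7 (0.200) and turned from below to above the other members, at 1.31. No paired analysis was possible because the analysed column is a mean over all libraries, and for the same reason no replicate was left out. Sequencing depth is unknown.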
